A study of Mus musculus with 9 samples.

Results

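The 8 genes described here encode the nuclear receptors through which retinoic acid (RA) acts, and 2 corepressors of nuclear receptors: the RA receptors Rara, Rarb and Rarg, the retinoid X receptors Rxra, Rxrb and Rxrg, and the corepressors Nrip1 (also called RIP140) and Ncor1. They were taken by symbol from a table of 33495 genes, and all 8 were found. They were measured by RNA sequencing in RF8, a mouse embryonic stem (ES) cell line, in bulk cultures of 3 transfectants. One transfectant carried enhanced green fluorescent protein (EGFP), which serves as the control. Another carried wild-type Nanog (WT), a homeodomain transcription factor of pluripotency, and the third carried Nanog with the L122A change, one of the homeodomain mutants in the title of the series.

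Each transfectant was grown in 3 cultures: the routine medium with 15% serum, 1000 units per ml of LIF (leukaemia inhibitory factor, which maintains self-renewal) and 2 µg of puromycin (LIF); without LIF (no-LIF); and without LIF but with 5 µM RA (RA). The labels give neither the time in each culture nor whether a transfectant was a clone or a pool, and do not name the promoter that drove the transgene. Each of the 9 combinations was 1 library, with no replicate. Differences were therefore tested across the levels of the other factor, in an edgeR model of culture and transfectant. Its p-values were adjusted by the Benjamini-Hochberg method over the 13996 genes tested, and "rose" or "fell" is used of genes with an adjusted p below 0.05.

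RA receptors (RARs) bind DNA as heterodimers with retinoid X receptors (RXRs), at RA response elements made of repeated half-sites. Without ligand the heterodimer holds a corepressor complex, of which NCoR1 is a scaffold for histone deacetylases. Binding of RA releases that complex and recruits coactivators. RIP140, the product of Nrip1, differs in that it binds receptors in the presence of ligand and then limits transcription. Rarb is a textbook RA target with an RA response element in its promoter, and RA is widely used to drive ES cells out of self-renewal.

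Total gene counts per library lay between 24166395 and 28714988, and trimmed-mean scaling factors between 0.810 and 1.255. CPM are counts scaled by the library total multiplied by its trimmed-mean factor. Nanog itself stood at 384, 290.3 and 0.871 CPM in the EGFP libraries with LIF, without LIF and with RA. In the same order it stood at 222, 168 and 195 CPM in the WT libraries and at 239, 129.9 and 258 CPM in the L122A libraries. Nanog was thus above the EGFP library in the 2 Nanog transfectants with RA, and below it in the other cultures. How far reads of the transgenes are counted as Nanog is not given in the sources used here, so these values do not check the transgenes. The summed level of 10 ES cell markers was 3593 to 5644 CPM with LIF and 35.9 (EGFP), 327 (WT) and 856 (L122A) CPM with RA. Nanog, as given above, is one of the 10 and a large part of the sums of WT RA and L122A RA. Of 7 endoderm markers the sum was 17.2 to 45.5 CPM with LIF and 112 to 356 CPM with RA. The 7 fibroblast markers summed to 393 CPM in EGFP RA and to between 6.69 and 46.1 CPM in the other 8 libraries, with Lum at 0 in EGFP RA and WT RA. The 5 neural markers found summed to 207 CPM in EGFP RA and to between 27.1 and 85.3 CPM elsewhere, with Sox1 at 0 in EGFP RA and WT RA. The ES cell sum was thus lower and the endoderm sum higher with RA in all 3 transfectants. The fibroblast sum hardly differed in L122A (15.7 CPM with LIF, 14.6 CPM with RA), nor did the neural sum (44.0 and 50.8 CPM). A sum does not show how its single genes moved. Over the 3 transfectants, 4 of the 5 fibroblast markers tested rose from LIF to RA and 0 fell. Of the 3 neural markers tested, 1 rose and 0 fell, where 24.5% of all genes tested rose. Thy1, a fibroblast marker, reached 1 CPM in all 6 libraries without RA but in only 1 RA library. The part of these cell types in the results was not tested. In bulk RNA, a change in the share of cells of a type and a change in RNA per cell cannot be told apart.

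Rarb and Nrip1 had the largest rises of the members under RA, so the bases before their start sites are shown first. They come from the RefSeq promoter table (GRCm38.p6, a later build than that of the expression table), which was matched by symbol and had 17 start-site windows for the 8 members. Each is the 250 bases before a start site on the gene's own strand, 5′ to 3′. The half-site was AGGTCA, its variant AGTTCA included, or, where the first base is G, GGGTCA as well as GGTTCA. Direct repeats of any pair of these, spaced by 1, 2 or 5 bases (DR1, DR2, DR5), were searched on both strands. In Rarb capitals mark the DR5. In Nrip1, which had no such repeat, capitals mark single half-sites on either strand.
Rarb, chr14:16575477-16575726, minus strand: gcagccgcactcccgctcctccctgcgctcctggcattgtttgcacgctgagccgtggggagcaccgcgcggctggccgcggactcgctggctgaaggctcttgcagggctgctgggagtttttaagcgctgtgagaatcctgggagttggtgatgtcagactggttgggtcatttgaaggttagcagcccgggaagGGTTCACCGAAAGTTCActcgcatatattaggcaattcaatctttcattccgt
Nrip1, chr16:76373828-76374077, minus strand: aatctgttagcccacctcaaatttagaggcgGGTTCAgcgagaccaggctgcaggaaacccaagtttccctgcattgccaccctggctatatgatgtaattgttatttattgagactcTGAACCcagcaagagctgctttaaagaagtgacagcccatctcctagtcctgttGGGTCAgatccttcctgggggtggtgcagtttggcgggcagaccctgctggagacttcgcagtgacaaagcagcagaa

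The only window listed for Rarb held the DR5 match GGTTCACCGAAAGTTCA, whose last base lies 36 bases before the start. A DR5 of this form was present in 29 of the 32851 windows of the same length in the table (0.0883%), a DR2 in 57 (0.174%) and a DR1 in 54 (0.164%). None of the other 16 windows of the members held any of these repeats. The Nrip1 window shown held 3 single half-sites, and its other window none. At least 1 half-site was present in 38.6% of all windows. These matches describe letters in 250 bases and were not tested for binding.

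Rarb, an RAR isotype that is itself an RA target, was per length the least abundant of the 8 members in every library without RA. In every RA library it was among the 2 most abundant per length. Its level was 0.368 and 0.343 CPM in EGFP LIF and no-LIF (11 and 9 counts), and 73.6 CPM in EGFP RA. In the WT libraries it was 0.492, 0.775 and 115 CPM, and in the L122A libraries 0.541, 0.911 and 80.6 CPM. All 3 RA libraries were far above all 6 others, with no overlap. Rarb rose 189.8-fold from LIF to RA (log2 fold change 7.57, SE 0.31, adjusted p = 3.73e-05) and 137-fold from no-LIF to RA (log2 fold change 7.09, SE 0.31, adjusted p = 4.41e-05). In both tests it had the smallest p of all 13996 genes, while its fold change ranked 21 and 25 among the rises. Rarb passed the filter on low counts (1 CPM in 3 libraries) only through the RA libraries, so its inclusion already fixed that they differ. Between single libraries the RA to LIF ratio was 199.99 in EGFP (95% Poisson interval 112 to 401), 233 in WT (127 to 487) and 149 in L122A (85.1 to 288.5), so the intervals, which cover counting error only, overlapped. Among the RA libraries alone, WT RA was 1.56 times EGFP RA (1.48 to 1.64) and L122A RA 1.10 times (1.04 to 1.16).

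**Figure D1:**
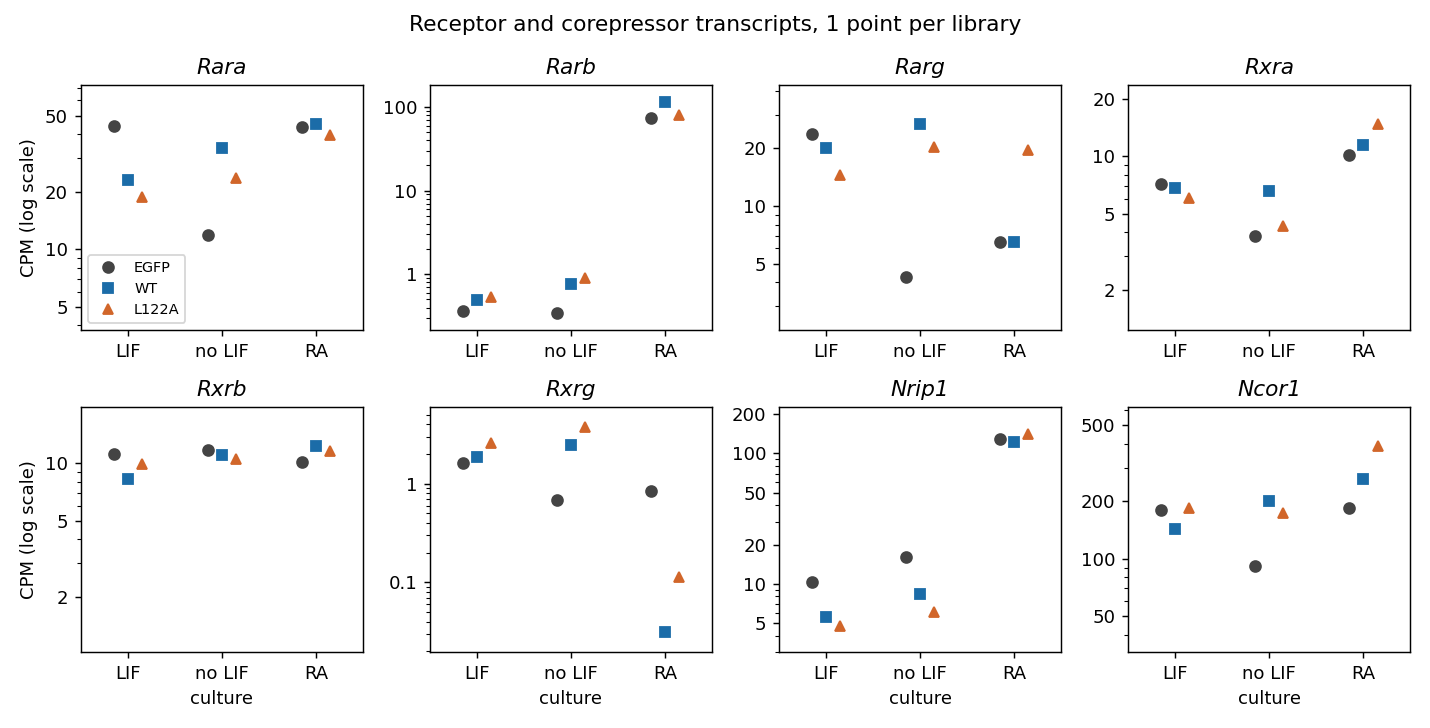
Level of each of the 8 genes (CPM, log axis) by culture (LIF, no LIF, RA), 1 point per library: EGFP circles, WT squares, L122A triangles. Rarb and Nrip1 stand far higher in all 3 RA libraries (73.6 to 115 and 123 to 142 CPM). Rxrb hardly moves under this trimmed-mean scaling, and EGFP no-LIF is the lowest library for Rara, Rarg and Ncor1.

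Rara, the RAR isotype found in most tissues, was high in EGFP LIF and in all RA libraries. It stood at 44.0, 11.8 and 43.6 CPM in the EGFP libraries (LIF, no-LIF, RA), at 22.9, 34.0 and 45.2 CPM in WT, and at 18.6, 23.6 and 39.4 CPM in L122A. The RA libraries lay above all no-LIF libraries, but overlapped the LIF libraries because EGFP LIF was as high as EGFP RA. The log2 fold change was 0.59 (SE 0.42, adjusted p = 0.267) against LIF and 0.89 (SE 0.42, adjusted p = 0.116) against no-LIF, and neither passed the test. Without EGFP LIF, the comparison with LIF gave 1.25 (adjusted p = 0.0216) and that with no-LIF 0.99 (adjusted p = 0.0234), both past the threshold. The comparison with no-LIF also passed with scaling by total counts (1.31, adjusted p = 0.0491), with limma on log2(FPKM + 1) (1.22, adjusted p = 0.0312) and in a fit of the RA and no-LIF libraries alone (0.98, adjusted p = 0.0424).

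Rarg, an isotype prominent in ES cells and early embryos, went in different directions by transfectant. Its levels were 23.9, 4.27 and 6.50 CPM in EGFP, 20.1, 26.9 and 6.47 CPM in WT, and 14.5, 20.4 and 19.7 CPM in L122A. The low libraries were EGFP no-LIF, EGFP RA and WT RA, while L122A RA was at the level of the LIF libraries. From LIF to RA, Rarg was 3.68-fold lower in EGFP (95% Poisson interval 3.15 to 4.31) and 3.11-fold lower in WT (2.62 to 3.69), but 1.36 times as high in L122A (1.19 to 1.56). The log2 fold change over the transfectants was -1.08 (SE 0.64, adjusted p = 0.198) against LIF and -0.60 (SE 0.64, adjusted p = 0.470) against no-LIF, and neither passed. L122A RA held 3.04 times the Rarg of EGFP RA (2.60 to 3.56) and 3.05 times that of WT RA (2.61 to 3.58). That difference was not tested.

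Per length, the mix of RAR transcripts changed with RA. In FPKM, which divides the count by gene length and library total, Rara made up 50.8 to 70.3% of the RAR sum in the 6 libraries without RA and 29.5% (EGFP), 22.1% (WT) and 23.6% (L122A) with it. Rarb made up 0.719 to 2.67% without RA, and 65.9% (EGFP), 74.5% (WT) and 63.9% (L122A) with RA. Rarg held 27.0 to 47.6% without RA and 4.66% (EGFP), 3.37% (WT) and 12.5% (L122A) with it. The RAR sum itself was 16.7, 3.74 and 38.0 FPKM in EGFP, 8.45, 13.7 and 57.2 FPKM in WT, and 7.31, 8.62 and 48.1 FPKM in L122A, so that the RA library was the highest of each transfectant and EGFP no-LIF the lowest of all. These shares describe transcripts counted per gene, not protein or isoforms.

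**Figure D2:**
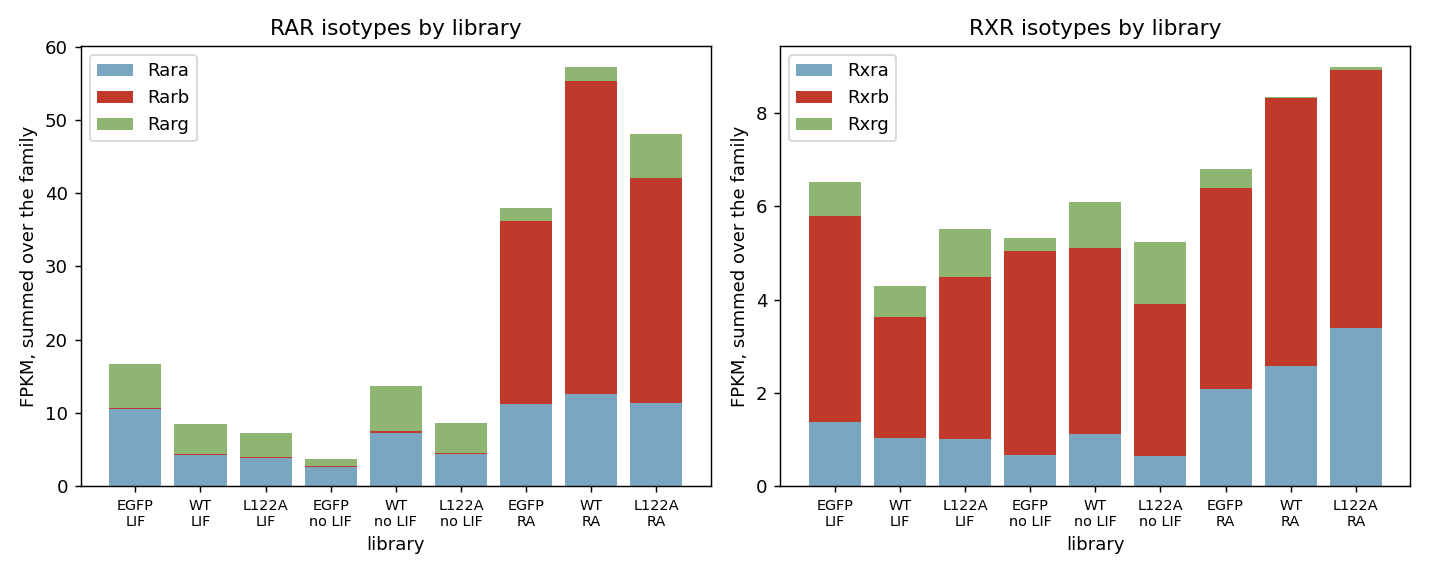
Stacked FPKM of the 3 RAR genes (left) and the 3 RXR genes (right) in each of the 9 libraries, from LIF to no LIF to RA. Rarb fills 63.9 to 74.5% of the RAR bar in the RA libraries and at most 2.67% elsewhere, while Rxrb fills 60.5 to 81.8% of every RXR bar.

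Among the RXRs, the shared partners of the RARs and of several other receptors, only Rxra passed the test in the RA comparisons. Rxra stood at 7.19, 3.81 and 10.2 CPM in EGFP (LIF, no-LIF, RA), at 6.84, 6.57 and 11.5 CPM in WT, and at 6.05, 4.30 and 14.7 CPM in L122A. The 3 RA libraries were the highest of the 9. Rxra rose 2.51-fold over no-LIF (log2 fold change 1.33, SE 0.30, adjusted p = 0.00811) and 1.80-fold over LIF (log2 fold change 0.85, SE 0.29, adjusted p = 0.0413). The call against LIF was lost on leaving out any 1 of EGFP RA, WT LIF, WT RA, L122A LIF, L122A no-LIF or L122A RA (log2 fold change 0.62 to 1.01, adjusted p 0.0544 to 0.187), with no filter on low counts (adjusted p = 0.0554), and in a fit of the LIF and RA libraries alone (adjusted p = 0.0513).

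Rxrb, the broadly expressed RXR, varied least. It lay between 8.31 and 12.3 CPM in all 9 libraries, and the cultures overlapped. Its log2 fold change was 0.22 (SE 0.23, adjusted p = 0.464) from LIF to RA and 0.03 (SE 0.23, adjusted p = 0.930) from no-LIF to RA. Scaled by total counts, Rxrb went from 6.82 (LIF) to 15.1 (RA) in WT and from 9.06 to 14.5 in L122A. In EGFP it went from 11.6 to 11.3, so its evenness is relative to the scaling. Neither comparison was called for Rxrb in any alternative fit. Per length it was the main RXR transcript in every library, at 60.5 to 81.8% of the RXR sum.

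Rxrg, whose expression in tissues is the most restricted of the RXRs, was scarce throughout. It had 48, 18 and 27 counts in EGFP (1.61, 0.686 and 0.840 CPM), 38, 60 and 1 in WT (1.87, 2.45 and 0.0313 CPM), and 57, 74 and 4 in L122A (2.57, 3.74 and 0.112 CPM). With RA it was thus nearly absent from the Nanog transfectants but not from EGFP, where the no-LIF library was as low as the RA library. From LIF to RA it was 59.8-fold lower in WT (95% Poisson interval 10.1 to 2423) and 22.9-fold lower in L122A (8.48 to 87.0), against 1.91-fold in EGFP (1.17 to 3.19). Across transfectants the log2 fold change was -2.77 against LIF (SE 1.10, adjusted p = 0.0678) and -2.99 against no-LIF (SE 1.17, adjusted p = 0.0672), just short of the threshold. Rxrg passed the filter on low counts only through libraries without RA, so its inclusion already fixed part of that difference. It was past the threshold without EGFP RA (-5.17, adjusted p = 0.00179, and -5.11, adjusted p = 0.0020) or without EGFP no-LIF (-3.27, adjusted p = 0.0205, and -4.17, adjusted p = 0.0192), and with DESeq2 (-2.95, adjusted p = 0.00766, and -3.22, adjusted p = 0.00379). So it was with limma on log2(FPKM + 1), a scale that understates changes of low genes (-0.65, adjusted p = 0.0439, and -0.66, adjusted p = 0.0433), and against LIF in a fit of the LIF and RA libraries alone (-3.29, adjusted p = 0.0388). The share of Rxra in the RXR sum, per length, was 30.5% (EGFP), 30.9% (WT) and 37.7% (L122A) with RA and 12.2 to 24.0% without it.

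Of the corepressors, Nrip1 rose steeply in every transfectant. It stood at 10.4, 15.9 and 129 CPM in EGFP (LIF, no-LIF, RA), at 5.61, 8.32 and 123 CPM in WT, and at 4.78, 6.12 and 142 CPM in L122A. The 3 RA libraries lay close together and far above the other 6, among which EGFP LIF and EGFP no-LIF were the highest. Nrip1 rose 20.6-fold from LIF to RA (log2 fold change 4.36, SE 0.32, adjusted p = 0.000201) and 14.3-fold from no-LIF to RA (log2 fold change 3.83, SE 0.31, adjusted p = 0.000287). By p it ranked 27 and 45 of 13996 genes. EGFP LIF was the highest of the LIF libraries, and the RA to LIF ratio of single libraries was 12.5 in EGFP (95% Poisson interval 11.1 to 14.0), 21.98 in WT (18.2 to 26.7) and 29.6 in L122A (24.5 to 36.3).

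Ncor1, the scaffold of the complex that unliganded receptors hold, was the most abundant member per length in all 6 libraries without RA. It stood at 179, 91.6 and 184 CPM in EGFP, at 144, 201 and 262 CPM in WT, and at 185, 173 and 389.6 CPM in L122A. Within WT and within L122A the RA library was the highest, whereas in EGFP the LIF and RA libraries were alike and the no-LIF library was low. Ncor1 rose 1.78-fold over no-LIF (log2 fold change 0.84, SE 0.28, adjusted p = 0.0398) but did not pass against LIF (log2 fold change 0.63, SE 0.28, adjusted p = 0.0933). The call against no-LIF was lost on leaving out any 1 of EGFP no-LIF, WT RA, L122A LIF, L122A no-LIF or L122A RA (log2 fold change 0.62 to 0.93, adjusted p 0.0578 to 0.149). Against LIF it passed without EGFP LIF (1.01, adjusted p = 0.0127) and with scaling by total counts (1.0004, adjusted p = 0.04397). It also passed against LIF with limma on log2(FPKM + 1) (adjusted p = 0.0341). Ttc19 overlaps Ncor1 on the other strand, and how strand was handled in counting is not given in the sources used here, so reads of the pair may be mixed.

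The balance of the 2 corepressor transcripts per length differed by culture. Ncor1 over Nrip1 in FPKM was 16.3, 5.44 and 1.35 in EGFP (LIF, no-LIF, RA), 24.5, 23.0 and 2.02 in WT, and 37.1, 27.1 and 2.61 in L122A. The RA library had the lowest ratio of each transfectant, and EGFP the lowest ratio in each culture.

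**Figure D3:**
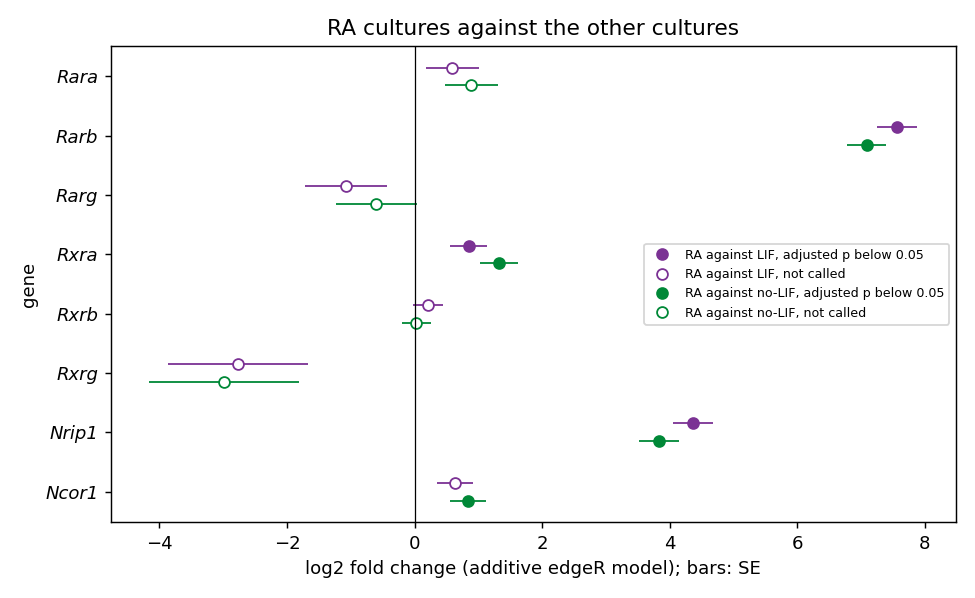
Log2 fold change of each gene from LIF to RA and from no-LIF to RA over the 3 transfectants (additive edgeR model, bars are 1 SE, filled points have an adjusted p below 0.05). Rarb (7.57 and 7.09) and Nrip1 (4.36 and 3.83) stand apart, Rxra is filled in both comparisons and Ncor1 only against no-LIF.

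Counted over the members, 3 of 8 rose from LIF to RA (Rarb, Rxra and Nrip1) and 0 fell, where 24.5% of all genes tested rose, 23.8% fell and 48.2% did either. From no-LIF to RA, 4 of 8 rose (the same 3 and Ncor1) and 0 fell, where 22.6% of genes rose, 21.9% fell and 44.5% did either. Both comparisons use the same RA libraries, so they are not independent. With this many genes called and 8 members, the counts are not read as a result about the members. Scaling by total counts put the median log2 fold change of all genes at 0.39 against LIF and 0.43 against no-LIF, compared with 0.01 and 0.02 under trimmed-mean scaling, so the smaller rises are relative to that choice. By separation alone, Rarb, Rxra and Nrip1 were higher in all 3 RA than in all 3 LIF libraries, as were 29.8% of genes, and Rxrg was lower, as were 29.3%. Against no-LIF, Rara joined those 3 above (26.2% of genes) and no member lay below (25.6%). Rarb passed the filter on low counts only through the RA libraries, and Rxrg only through the others. Their inclusion thus already fixed the separation of Rarb and part of that of Rxrg. Between no-LIF and LIF no member separated, as 4.44% of genes did upward and 5.29% downward. Within single transfectants, members 2-fold or more apart with at least 5 CPM in the higher of 2 libraries numbered 3 of 8 in EGFP (30.7% of all genes), 3 in WT (36.6%) and 5 in L122A (28.5%) for RA and LIF. For RA and no-LIF they numbered 5 in EGFP (28.8%), 3 in WT (29.5%) and 4 in L122A (32.8%).

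Withdrawal of LIF without RA called no member in the test over the 3 transfectants: 0 of 8, against 10 of 13996 genes (0.0714%), with 0 members at an unadjusted p below 0.05 where 1222 genes had one. DESeq2 called 278 genes and no member. Adjusted p-values of the members lay between 0.696 (Nrip1) and 0.982 (Rxrg). The transfectants did not move alike, however. By the same 2-fold count, no-LIF and LIF differed in 2 of 8 members in EGFP (9.89% of all genes), 0 in WT (7.34%) and 0 in L122A (4.29%). In EGFP, Rara was 3.74-fold lower without LIF than with it (95% Poisson interval 3.30 to 4.24), Rarg 5.597-fold lower (4.58 to 6.89) and Ncor1 1.96-fold lower (1.87 to 2.06). In WT the ratio of no-LIF to LIF was 1.48 for Rara (1.32 to 1.66), 1.34 for Rarg (1.18 to 1.52) and 1.40 for Ncor1 (1.34 to 1.46). In L122A it was 1.27 for Rara (1.11 to 1.45), 1.40 for Rarg (1.21 to 1.63) and 0.935 for Ncor1 (0.893 to 0.978).

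The difference between these responses was tested on the mean of the 2 Nanog transfectants against EGFP. For the response to LIF withdrawal it was 2.37 on the log2 scale for Rara (SE 0.45, unadjusted p = 0.000584, adjusted p = 0.333), 2.93 for Rarg (SE 0.87, adjusted p = 0.471) and 1.16 for Ncor1 (SE 0.44, adjusted p = 0.556). None of the 13996 genes passed in that test by edgeR (0%), while 1117 genes and 3 members had an unadjusted p below 0.05. DESeq2 called Rara (2.37, adjusted p = 0.00246), and edgeR with no filter on low counts called Rara (2.38, adjusted p = 0.000724) and Rarg (2.94, adjusted p = 0.000356). The estimate rests on 1 EGFP library in each culture, of which EGFP no-LIF is the low one.

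For the RA response, the same test called 0 of 8 members from LIF (0.00714% of genes) and 0 of 8 from no-LIF (0.0429%), with 3 members at an unadjusted p below 0.05 in each. Rxrg had the widest gap, -3.91 from LIF (SE 1.18, adjusted p = 0.331) and -5.604 from no-LIF (SE 1.23, unadjusted p = 0.00144, adjusted p = 0.213). The value from no-LIF passed with DESeq2 (-5.71, adjusted p = 0.0134) and with no filter on low counts (-5.54, adjusted p = 0.00315). In the counts, EGFP RA had 27 reads of Rxrg, WT RA 1 and L122A RA 4.

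**Figure D4:**
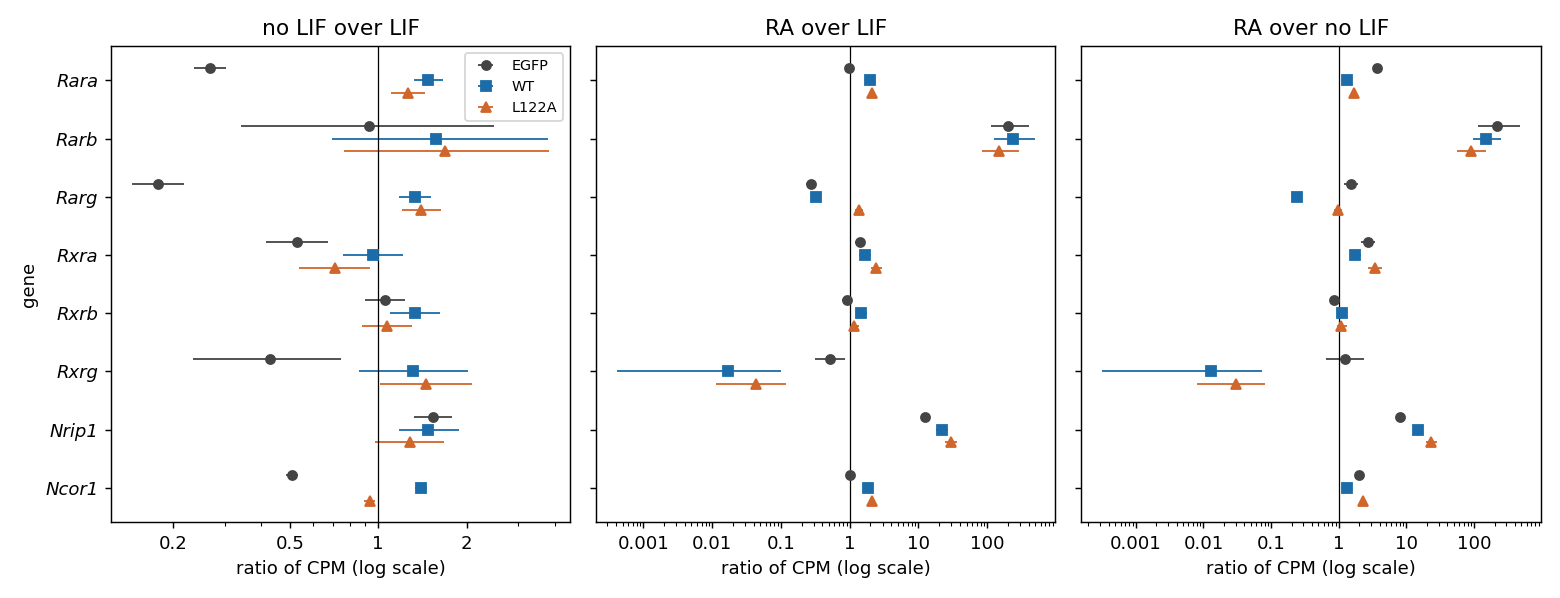
Ratio of CPM between cultures of the same transfectant for each gene (log axes, with a narrower range in the left panel), with 95% Poisson intervals that cover counting error only. In the left panel Rara and Rarg lie below 1 in EGFP (0.268 and 0.179) and above 1 in WT (1.48 and 1.34) and L122A (1.27 and 1.40), and in the other panels Rxrg is far lower in both Nanog transfectants than in EGFP.

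Between transfectants, averaged over cultures, no member passed the test. WT against EGFP called 0 of 8 (0.322% of genes), L122A against EGFP 0 of 8 (2.88%) and L122A against WT 0 of 8 (0% of genes, with 614 genes and 0 members at an unadjusted p below 0.05 and 51 genes called by DESeq2). The lowest p-values belonged to Nrip1, at -0.67 in WT (SE 0.28, adjusted p = 0.398) and -0.78 in L122A (SE 0.28, adjusted p = 0.186), to Rarb in WT (0.70, SE 0.27, adjusted p = 0.363) and to Ncor1 in L122A (0.66, SE 0.28, adjusted p = 0.259). Nrip1 in L122A passed when EGFP RA was left out (-1.18, adjusted p = 0.0323).

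Within a culture, libraries were compared without a test, by the same count of genes apart by 2-fold or more. With LIF, L122A differed from EGFP in 2 of 8 members (6.93% of all genes): Rara was 2.36-fold lower (95% Poisson interval 2.11 to 2.65) and Nrip1 2.17-fold lower (1.74 to 2.74). WT with LIF differed from EGFP in 0 of 8 (7.41%). Without LIF, WT differed from EGFP in 3 of 8 (11.6%), with Rara 2.88 times (2.53 to 3.30), Rarg 6.29 times (5.14 to 7.76) and Ncor1 2.19 times (2.09 to 2.30) as high. L122A without LIF differed in 3 of 8 (14.8%), with Rarg 4.77 times (3.86 to 5.94) and Rara, at the limit, 2.001 times as high (1.73 to 2.32), and Nrip1 2.60-fold lower (2.12 to 3.21). With RA, WT differed from EGFP in 0 of 8 (8.21%) and L122A in 2 of 8 (14.3%), Rarg and Ncor1, the latter 2.12 times as high (2.06 to 2.19). L122A against WT differed in 0 of 8 with LIF (2.57%), in 0 without LIF (5.78%) and in 1 with RA (5.27%), which was Rarg.

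Per length, the order of the 8 transcripts with LIF was not that with RA. With LIF, Ncor1 led at 9.78 to 15.5 FPKM, followed by Rara (3.92 to 10.5), Rarg (3.24 to 6.06) and Rxrb (2.60 to 4.43), whose ranges overlap in that sequence. Rxra (1.02 to 1.37), Rxrg (0.670 to 1.03) and Nrip1 (0.38 to 0.95) came next, and Rarb was last at 0.12 to 0.15 FPKM. With RA, Rarb (25.0 to 42.6 FPKM) and Ncor1 (17.1 to 40.6) overlapped at the top. Below them lay Nrip1 (12.7 to 15.5) and Rara (11.2 to 12.7), then Rxrb (4.32 to 5.75), Rarg (1.77 to 6.03) and Rxra (2.08 to 3.39), with Rxrg last at 0.0200 to 0.410 FPKM.

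The positions of the genes, in mm9 as the expression table gives them, scatter over 7 chromosomes. Rarb lies on the minus strand of chr14:17263355-17651381 and Nrip1 on the minus strand of chr16:76287644-76374072. Top2b, a topoisomerase gene on the other strand, ends 54 bases from the lower end of Rarb. It stood at 60.5, 86.3 and 215 CPM in EGFP (LIF, no-LIF, RA), 43.4, 57.2 and 212 CPM in WT and 51.7, 56.0 and 242 CPM in L122A, so this neighbour too was highest in the RA libraries. Since the use of strand in counting is not given, reads near the adjoining ends of Top2b and Rarb may be mixed. On one side of Nrip1, AC145744.1 lies 29423 bases away and stood at 57.6, 76.7 and 30.9 CPM in EGFP, 108, 89.1 and 29.6 CPM in WT and 84.1, 115 and 28.9 CPM in L122A, lowest in the RA library of each transfectant. On the other side, Hspa13 lies 520578 bases away and stood at 34.2, 60.5 and 76.4 CPM in EGFP, 44.8, 30.1 and 60.9 CPM in WT and 45.7, 56.0 and 47.9 CPM in L122A, without the rise of Nrip1.

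Over the 9 libraries, the genes whose log2 CPM was most like that of each member (of 10047 genes whose mean reached 5 CPM) were, for Rarb, Zfp362 (Pearson r = 0.997), Mll5 and Arhgef12 (both 0.99). For Nrip1 they were 2310021P13Rik (0.995), Pdzd8 and Map3k7ip2 (both 0.99). As many as 814 genes had an r of at least 0.9 with Rarb and 1178 with Nrip1, both of which are highest in the 3 RA libraries. An r that high was reached by 22 genes with Rara (Plekhm1 0.95, Phf12 0.94, Ldb1 0.93), by 22 with Rarg (Pdxp 0.96, Poli and Zfp532 0.95) and by 10 with Rxrb (Kdm2b and Zfp161 0.96, Cyth2 0.94). For Rxra the count was 132 (Vps13a and Nfrkb, each 0.97), for Rxrg 101 (Mpg 0.98, Cend1 0.97, Slc25a40 0.96) and for Ncor1 52 (2210018M11Rik 0.99, Tnrc6c 0.98, Casz1 0.96). Among the members themselves, Rarb and Nrip1 were the most alike (0.95). These r values are descriptions over libraries that share transfectants and cultures.

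The other genes of the pathway were taken from lists written from general knowledge, with earlier results of these data already known. A list share far from that of all genes is thus a description, not an independent test. Their counts stand against 24.5% of all genes that rose and 23.8% that fell from LIF to RA, and 22.6% and 21.9% from no-LIF to RA, and a share near these is not a result about a list. In each list, a gene that passed the filter on low counts only through the RA libraries, or only through the others, had to differ, and is named as such. Of 11 corepressor complex subunits, all tested, 5 rose and 2 fell from LIF to RA (list median log2 fold change 0.52, all genes 0.01), and 5 rose and 2 fell from no-LIF. Lcor, a ligand-dependent corepressor, rose 3.90-fold over LIF (adjusted p = 0.00204). The deacetylase gene Hdac1 fell 2.72-fold (adjusted p = 0.000657) and Ctbp2, a corepressor that RIP140 binds, 2.62-fold (adjusted p = 0.00261). With 1 library left out the number that rose ranged from 3 to 6 against LIF (3 without L122A LIF, L122A RA, WT LIF or WT RA) and from 2 to 6 against no-LIF (2 without WT RA or L122A no-LIF, 3 without EGFP no-LIF, L122A LIF or L122A RA). The number that fell was 3 against LIF without L122A RA, and 1 against no-LIF without WT RA. Lcor and Hdac1 were called in all of these fits.

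Of 10 nuclear receptor coactivators, 5 rose and 1 fell from LIF to RA (list median 0.47), and 6 rose and 1 fell from no-LIF (list median 0.79, all genes 0.02). Ncoa2, a p160 coactivator, rose 3.81-fold over LIF (adjusted p = 0.000711) and the acetyltransferase gene Crebbp 3.11-fold (adjusted p = 0.00154), while the methyltransferase gene Prmt1 fell 2.14-fold (adjusted p = 0.00164). Ep300, the paralog of Crebbp, rose 3.00-fold over no-LIF (adjusted p = 0.00224). The number that rose was 3 against LIF without the LIF or RA library of either Nanog transfectant, and 3 without WT RA against no-LIF.

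Of 11 other receptors that pair with RXR or are close to those that do, 6 were tested, of which 3 rose and 0 fell from LIF (list median 0.76) and 2 rose and 0 fell from no-LIF (list median 0.56). Pparg, the fat cell receptor, passed the filter only through the RA libraries. It had 213, 193 and 117 counts in EGFP, WT and L122A with RA and 0 in all 3 LIF libraries. With a floor of 3 counts per library it was at least 66.0-fold higher with RA than with LIF in EGFP, at least 40.9-fold in WT and at least 24.2-fold in L122A, and the list median is 0.76 with Pparg at the lowest of these bounds too. Nr4a2 rose 4.36-fold over LIF (adjusted p = 0.0350), a call lost without any 1 WT library or L122A LIF. Ppard rose 2.01-fold over no-LIF (adjusted p = 0.0176), a call lost without EGFP no-LIF, EGFP RA, WT RA or L122A no-LIF. The number that rose dropped to 0 against LIF without WT RA and to 1 without EGFP RA, WT LIF, L122A LIF or L122A RA, and against no-LIF to 0 without EGFP RA or WT RA and to 1 without EGFP no-LIF.

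Of 12 orphan receptors of ES cells and their differentiation, 11 were tested, of which 5 rose and 2 fell from LIF (list median 0.87) and 6 rose and 2 fell from no-LIF (list median 0.78). Nr2f2 and Nr2f1 (COUP-TFs), which can compete for RA response elements, rose 74.9-fold (adjusted p = 0.000282) and 14.2-fold (adjusted p = 0.00178) over LIF, and both passed the filter only through the RA libraries. Nr0b1 (Dax1) and Nr5a2 (Lrh1), which belong to the ES cell state, fell 42.9-fold (adjusted p = 0.00598) and 41.1-fold (adjusted p = 0.000435), Nr5a2 having passed the filter only through libraries without RA. With no filter on low counts the Nr0b1 call was lost in both comparisons. Against no-LIF it was also lost without WT RA or L122A no-LIF. Nr0b1 stood at 102 CPM with LIF and 16.01 CPM with RA in L122A, compared with 58.9 and 0.280 CPM in EGFP. The number that rose against LIF was 1 without WT RA, 2 if L122A RA was left out and 3 if EGFP RA was, and against no-LIF 1 without WT RA, 2 if L122A RA was left out and 3 if WT no-LIF was. Of those that fell, 3 were counted without L122A RA in both comparisons, and 1 against no-LIF without WT RA or L122A no-LIF.

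Of 14 genes of retinoid metabolism and binding, 12 were tested, of which 9 rose and 1 fell from LIF (list median 3.43) and 8 rose and 0 fell from no-LIF (list median 3.03). Cyp26a1, which degrades RA, was at 1.94, 6.98 and 103 CPM in EGFP (LIF, no-LIF, RA), 0.443, 1.18 and 498 CPM in WT and 0.0902, 0.253 and 481 CPM in L122A, and rose 770.5-fold over LIF (adjusted p = 0.00150). Cyp26b1, another RA hydroxylase, rose 686-fold (adjusted p = 0.000382) and passed the filter only through the RA libraries, and Crabp1, an RA-binding protein gene, fell 4.66-fold (adjusted p = 0.0416). Crabp1 was at 29.2 CPM in EGFP RA and at 2.25 and 4.71 CPM in WT RA and L122A RA. Its call was lost without WT LIF, WT RA, L122A LIF, L122A no-LIF or L122A RA. That call was also lost with scaling by total counts, with no filter on low counts, and in a fit of the LIF and RA libraries alone. The number that rose against LIF was 6 without WT RA or L122A RA, and against no-LIF 4 without WT RA and 5 without L122A no-LIF. The number that fell was 2 in both comparisons without EGFP RA, and 1 against no-LIF without EGFP LIF or EGFP no-LIF.

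Of 10 RAR target genes, 9 were tested, of which 8 rose from LIF (list median 5.47) and 9 from no-LIF (list median 5.00), with 0 falling in either. Meis2, a homeobox cofactor gene, rose 87.0-fold (adjusted p = 0.000800) and Hoxa4 73.1-fold (adjusted p = 0.00225) over LIF. The number that rose was 5 against LIF without any 1 of the RA libraries, and 5 against no-LIF without EGFP RA or WT RA. Hoxa4, Hoxb1 and Hoxb4 passed the filter only through the RA libraries. These 3, like Pparg, Nr2f1, Nr2f2 and Cyp26b1, therefore drop out of the test when an RA library is left out, which lowers the counts of their lists.

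No gene of these 6 lists passed in no-LIF against LIF, in WT against EGFP or in L122A against WT. The lowest adjusted p in each list lay between 0.292 (Nr5a2) and 0.691 (Tbl1x) in no-LIF against LIF, between 0.137 (Aldh1a1) and 0.563 (Nr0b1) in WT against EGFP, and between 0.735 (Aldh1a1) and 0.999 (Hdac1) in L122A against WT. In WT against EGFP, 2 RAR target genes and 1 retinoid gene fell when EGFP RA was left out, and DESeq2 called 1 retinoid gene lower. In no-LIF against LIF, DESeq2 called 1 orphan receptor gene lower. In L122A against EGFP, 2 retinoid genes fell: Aldh1a1, which makes RA, 28.3-fold (adjusted p = 0.0134) and Rdh10, which makes its precursor retinal, 3.83-fold (adjusted p = 0.0355). Both calls were lost without EGFP no-LIF, L122A no-LIF or L122A RA and with limma on FPKM. Both calls were also lost in a fit of the L122A and EGFP libraries alone. That of Rdh10 was also lost without WT LIF or L122A LIF and that of Aldh1a1 without EGFP RA or WT RA, and Aldh1a1 was below 8 CPM in every library. In the same comparison 4 of the 5 fibroblast markers tested fell (Col1a1 9.80-fold, Col1a2 34.4-fold, Col3a1 14.4-fold and Dcn 28.1-fold), as did Nes among the 3 neural markers tested (9.17-fold), and their part in the 2 retinoid calls was not tested. In the response from no-LIF to RA, Crabp2, which carries RA to its receptors, differed between the Nanog transfectants and EGFP by 4.90 on the log2 scale (SE 0.51, adjusted p = 0.0285). Its levels were 13.4 and 15.0 CPM in EGFP no-LIF and RA, 3.71 and 108 CPM in WT and 2.23 and 91.3 CPM in L122A. That call was lost without WT LIF, L122A LIF or L122A no-LIF and with scaling by total counts.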

How the data were processed

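RNA of 9 libraries of RF8 mouse ES cells, 1 for each of 3 transfectants in each of 3 cultures, was sequenced, and the submitters' processing notes name TopHat2 2.0.11 and the build mm9. Not given in the sources used here are the counting program, its annotation and its use of strand. The deposited file holds a raw count of reads per gene made by the authors, not normalized, and FPKM, which the authors computed per the file headers. The FPKM equalled count over feature length and total count, within 1%, for 100% of genes above 5 FPKM. The column name of the LIF culture is in no label and was assigned by elimination, and L122 was taken as L122A.

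Genes that reached 1 CPM, here of the plain library total, in 3 or more libraries (13996 of 33495) were tested with edgeR 4.0.16. The test was robust quasi-likelihood with TMM factors (R 4.3.3). Its model was additive in culture and transfectant (4 residual degrees of freedom, coefficient of variation 0.325). Differences of responses used the means of EGFP and of the 2 Nanog transfectants in each culture, with 3 residual degrees of freedom (0.287). The p-values measure departure from additivity, or the spread between WT and L122A, not the spread between replicate cultures. The SE was derived as the log2 fold change, without sign, divided by the root of F. Ratios between single libraries carry exact 95% Poisson intervals for counting error alone (scipy 1.17.1).

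Named are all members; from each list and comparison the 2 called genes with the largest rise and the 2 with the largest fall, or with none called the gene with the smallest p; and the 3 genes most like each member (log2 CPM, prior count 2). Some genes that this rule names are left out. Nanog, marker and neighbouring genes are given as checks or for their position. The members and lists were chosen with earlier results of these data known. Alternatives were RLE and total-count scaling, no filter, DESeq2 1.42.0, leaving out 228 ribosomal RNA and mitochondrial genes, limma 3.58.1 on log2(FPKM + 1), only the levels compared, and leaving out each library. The script was tested on simulated data with known changes.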

Additional observations from a re-analysis of the deposited data

Results flagged for a closer look

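Rara and Rarg went in opposite directions on withdrawal of LIF in EGFP and in the Nanog transfectants, which is why they are listed here. The ratio of CPM without LIF to that with LIF was 0.268 in EGFP, 1.48 in WT and 1.27 in L122A for Rara. For Rarg it was 0.179 in EGFP, 1.34 in WT and 1.40 in L122A. With 1 library per combination the opposite directions were not tested library by library. The edgeR test of the difference between the Nanog transfectants and EGFP gave an adjusted p of 0.333 for Rara and 0.471 for Rarg. EGFP no-LIF is the low library for both genes.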

How the results depend on the processing

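Rarb and Nrip1 rose with RA in every fit run that tested them: without each library in turn the log2 fold change from LIF was 7.44 to 7.62 for Rarb (6 fits, since Rarb could not be fitted after the filter when an RA library was left out) and 4.03 to 4.73 for Nrip1 (9 fits). Limma on FPKM gave 4.87 for Rarb. No called change of a member reversed in any of them. The number of members called was 5 with limma on FPKM from LIF to RA. In the difference of responses to RA from no-LIF it was 1 with no filter and 1 with DESeq2, and in that to LIF withdrawal 2 with no filter and 1 with DESeq2. Leaving out 1 library, 1 to 5 members were called from LIF to RA (4067 to 6682 of all genes) and 2 to 5 from no-LIF to RA (3499 to 6309). It gave 0 to 0 in no-LIF against LIF (0 to 43 genes), 0 to 0 in WT against EGFP (0 to 144), 0 to 1 in L122A against EGFP (24 to 565) and 0 to 0 in L122A against WT (0 to 0). It gave 0 to 0 in the differences of response from LIF to RA (1 to 173 genes), from no-LIF to RA (1 to 87) and from LIF to no-LIF (0 to 35). Counts over all genes moved by more than 1.5 times in these cases. In no-LIF against LIF, total-count scaling called 2, no filter 37, DESeq2 278, limma 4 and only the levels compared 86. In WT against EGFP they called 22, 138, 609, 19 and 86. In L122A against EGFP, total-count scaling called 253, DESeq2 1438, limma 217 and only the levels compared 79. In L122A against WT, no filter called 1, DESeq2 51 and only the levels compared 3. In the difference of response from LIF to RA, no filter called 684, DESeq2 266 and limma 20. In that from no-LIF to RA, RLE factors called 3, total-count scaling 2, no filter 634, DESeq2 255, leaving out ribosomal RNA and mitochondrial genes 3 and limma 51, and in that to LIF withdrawal no filter 403 and DESeq2 121. The cause of these moves was not tested. With total-count scaling the members at least 2-fold different were 7 in WT RA against WT LIF, 4 in EGFP no-LIF against EGFP LIF and 2 in WT LIF against EGFP LIF. Libraries were paired only through the transfectant term of the model, which matches the cultures of a transfectant. The labels carry no replicate numbers for any further pairing. At 1 to 74 counts, Rxrg is limited by depth, as is Rarb without RA.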
